A study of Mus musculus with 4 samples.

Results

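The 6 ADAM sheddase genes Adam8, Adam9, Adam10, Adam15, Adam17 and Adam19 were described in mouse CD4 T cells, out of 23284 gene symbols measured. They were taken by gene symbol, and each had a single entry in the tables. The set was selected with the difference between the sorted populations already known. The differences of these 6 genes between the populations are therefore a description and carry no test. RNA was measured in 4 libraries. CD4 T cells from the spleens of BALB/c mice had been cultured under Th1 conditions with IL-2 at 15 ng/ml and IL-12 at 10 ng/ml, conditions shared by all libraries. The labels give the culture time as 4 days in one place and as 5 days in another. The cells were then sorted by 2 surface proteins, and each of the populations, CCR7hiCD137lo and CCR7loCD137hi, gave 2 libraries. CCR7, a chemokine receptor, directs the homing of T cells to lymphoid tissue, and CD137, the product of Tnfrsf9, is a costimulatory receptor that appears on activated T cells. The study set out to characterize these populations in work on Acc1, fatty acid synthesis and memory potential of CD4 T cells.

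ADAM proteins are membrane-anchored metalloproteinases with a prodomain, a zinc-dependent protease domain and a disintegrin domain. The active members act as sheddases: they cut other membrane proteins close to the cell surface and release their outer part, which can be a cytokine, a growth factor, a receptor or an adhesion molecule. On T cells such cleavage is known for TNF, the IL-6 receptor, LAG-3 and Notch. The protein activity depends on removal of the prodomain, transport to the surface and inhibitors, so RNA levels do not measure shedding.

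The labelled sort was visible in the RNA. Ccr7 was at 93.4 and 118 FPKM (fragments scaled to transcript length and to library depth) in CCR7hiCD137lo replicates 1 and 2. It was at 39.6 and 38.2 FPKM in CCR7loCD137hi replicates 1 and 2. Tnfrsf9 was at 0.961 and 6.25 FPKM in CCR7hiCD137lo, against 158 and 184 FPKM in CCR7loCD137hi. All 8 matched genes of the CD4 T cell marker list were above 1 FPKM in every library, and their summed level was 1431 to 1675 FPKM. Most of these genes are shared with other T cells. Cd4 itself was at 125 and 182 FPKM in CCR7hiCD137lo, against 95.6 and 176 FPKM in CCR7loCD137hi. The files give no fragment counts. From the steps between low FPKM values the depth was estimated at about 20700000 and 13100000 fragments for CCR7hiCD137lo and at about 11700000 and 6300000 fragments for CCR7loCD137hi. The absolute scale rests on an assumed fragment length of 200 nt and had no separate check. Depths relative to CCR7hiCD137lo replicate 1 came from ratios of low values. Of these ratios 70.7% to 71.9% were whole-number ratios within 0.002 on the natural log scale, which does not bear on the absolute scale. The labels do not say whether replicates came from separate mice or cultures, so any p-value below measures only the spread between these libraries, which may be technical.

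The 250 bases before the annotated start are shown for Adam8 and Adam10, because these were the members with the widest difference in each direction. Both are the RefSeq reference of build GRCm38.p6, written 5′ to 3′ on the strand of the gene. The reference is of another strain than the BALB/c cells. Adam8 is on the minus strand at chr7:139992563-139992812 and Adam10 on the plus strand at chr9:70678732-70678981. Capitals mark matches, on either strand, to any of 11 short motifs.
Adam8: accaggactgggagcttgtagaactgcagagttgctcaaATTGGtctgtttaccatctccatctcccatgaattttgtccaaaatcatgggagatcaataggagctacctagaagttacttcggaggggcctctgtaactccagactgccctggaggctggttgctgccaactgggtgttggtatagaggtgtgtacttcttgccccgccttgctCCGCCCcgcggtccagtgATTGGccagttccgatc
Adam10: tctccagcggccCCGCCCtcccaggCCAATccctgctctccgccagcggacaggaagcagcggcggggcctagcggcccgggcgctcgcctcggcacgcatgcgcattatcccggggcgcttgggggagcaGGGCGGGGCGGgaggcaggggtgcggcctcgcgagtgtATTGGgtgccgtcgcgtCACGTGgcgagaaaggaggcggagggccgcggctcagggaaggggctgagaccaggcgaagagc
The windows differed in composition. The Adam8 window had a GC content of 52.8% and 6 CpG dinucleotides, against medians of 52.4% and 6 over 32807 RefSeq windows of the same length. The Adam10 window had 74.0% GC and 29 CpG dinucleotides. In Adam8 the capitals are 2 CCAAT boxes (CCAAT, in 33.8% of all windows) and 1 GC box (GGGCGG, in 32.7%). In Adam10 they are 2 CCAAT boxes, 3 GC boxes, of which 2 overlap by 1 base, and 1 palindromic E-box (CACGTG, in 6.02%). The other motifs had no match in either window. They were AP-1 (TGANTCA, in 6.75% of all windows), NF-kB (GGANTTTCC, 1.07%), NFAT (TGGAAA, 18.6%), ETS (CCGGAA, 12.0%), the TATA box (TATAAA, 12.4%), RBPJ (TGGGAA, 21.6%), RUNX (TGTGGT, 14.0%) and STAT (TTCNNNGAA, 7.02%). A match is a run of letters and not a binding site, and the lack of one covers only these letters in this window.
Windows were also at hand for Adam15, Adam17 and Adam19. The Adam17 window was GC-rich like that of Adam10, with 70.4% GC and 23 CpG dinucleotides, and held 1 ETS match and 1 GC box. The Adam15 window had 62.0% GC, 18 CpG dinucleotides, 2 ETS matches and 1 each of the GC box, the CCAAT box and RUNX. Adam19 had 3 annotated starts, with 50%, 60% and 58.4% GC and 5, 7 and 4 CpG dinucleotides. The first Adam19 window held 2 NFAT matches and 1 palindromic E-box, the second 1 AP-1 match and the third 1 RUNX match.

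Adam8 was the member with the widest difference between the populations. ADAM8, first described on cells of the macrophage lineage, is a leukocyte sheddase that activates itself by cutting off its own prodomain, and PSGL-1 is among its known substrates. The gene (ENSMUSG00000025473.16) lies at chr7:139978941-139992488 on build mm10, on the minus strand, and has 24 exons. Its level was 0.734 and 0.867 FPKM in CCR7hiCD137lo replicates 1 and 2. It was 13.4 and 9.75 FPKM in CCR7loCD137hi replicates 1 and 2. Both CCR7loCD137hi libraries were far above both CCR7hiCD137lo libraries, and of the CCR7loCD137hi libraries replicate 2 was the lower. The means were 0.80 ± 0.0935 FPKM (SD, n = 2) and 11.6 ± 2.60 FPKM (SD, n = 2), a ratio of 14.5. On the log2(FPKM + 1) scale, which understates changes of low genes, the fitted difference was 2.79 with a standard error of 0.21. With any 1 library left out it stayed between 2.58 and 3.0. Of 10496 genes with a mean of at least 1 FPKM, 44 had a higher fitted log2 fold change.

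The low Adam8 values rested on few fragments. In CCR7hiCD137lo they correspond to an estimated 47.4 and 35.3 fragments, with a counting error of 14.5% and 16.8%. The CCR7loCD137hi values correspond to 489 and 193 fragments, with a counting error of 4.52% and 7.20%. These errors cover the sampling of fragments only and not the spread between libraries. Among all gene symbols of a library, Adam8 stood at percentiles 55.5 and 54.9 in CCR7hiCD137lo and at 79.2 and 74.2 in CCR7loCD137hi.

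Of the coding genes next to Adam8, 1 was well expressed and overlapped between the populations. Tubgcp2, a gamma-tubulin complex gene on the same strand whose 3′ end lies 3392 nt from the start of Adam8, was at 17.5 and 18.2 FPKM in CCR7hiCD137lo, against 16.2 and 18.2 FPKM in CCR7loCD137hi. The gene 6430531B16Rik, 176 nt away on the same strand, was listed at 0 in both CCR7hiCD137lo libraries. In CCR7loCD137hi it was at 0.0895 and 0.165 FPKM, below the 0.257 and 0.473 FPKM that 3 fragments per kilobase would give. A noncoding gene on the opposite strand, Gm16201, overlaps the end of Adam8 by 46 nt and was not matched in the tables.

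Genes listed as markers of other cell types moved in part with Adam8. The 16 myeloid and dendritic cell markers summed to 2.06 and 0.868 FPKM in CCR7hiCD137lo and to 3.02 and 3.99 FPKM in CCR7loCD137hi. Of these markers 8 were at 0 in every library (Lyz1, Csf1r, Csf3r, S100a8, S100a9, Flt3, Clec9a and Siglech), and Cd68 alone passed 1 FPKM. The 8 matched B cell markers summed to 0.126 and 0.200 FPKM in CCR7hiCD137lo, against 5.86 and 0.529 FPKM in CCR7loCD137hi. Of these, Cd79a was at 0.0431 and 0.0683 FPKM in CCR7hiCD137lo, against 1.14 and 0.141 FPKM in CCR7loCD137hi. Cd79b was at 0.0487 and 0.0772 FPKM in CCR7hiCD137lo, against 1.38 and 0.318 FPKM in CCR7loCD137hi. The 8 CD8 T and NK cell markers summed to 12.1 and 21.8 FPKM against 41.7 and 33.8 FPKM, with 4 above 1 FPKM in at least 1 library (Cd8a, Cd8b1, Ncr1 and Eomes) and Klra4 at 0 in every library. Eomes alone was at 9.42 and 17.2 FPKM against 26.5 and 28.5 FPKM, so it made up most of this sum in every library. Bulk values do not show which cells carried it. Cd8a was at 0 and 0.0265 FPKM against 3.68 and 0.218 FPKM. Ncr1 was at 0 in both CCR7hiCD137lo libraries, against 1.91 and 0.251 FPKM. In CCR7loCD137hi replicate 2 both lay below the 0.473 FPKM that 3 fragments per kilobase would give. Cd8b1 overlapped at 2.63 and 4.56 FPKM against 8.48 and 3.78 FPKM. The 12 granulocyte, erythroid and platelet markers summed to 0.215 and 0.403 FPKM against 2.90 and 4.88 FPKM, with 2 above 1 FPKM in at least 1 library (Hba-a1 and Cpa3) and 5 at 0 in every library (Elane, Ngp, Hbb-b1, Pf4 and Ppbp). Cd79a, Cd79b, Cd8a, Ncr1 and Adam8 were all higher in CCR7loCD137hi replicate 1 than in replicate 2. The same held for Cd8b1, the B cell sum and the CD8 T and NK cell sum. Eomes, the myeloid and dendritic cell sum and the granulocyte, erythroid and platelet sum were higher in replicate 2 instead. Whether other cells were present, and their part in the Adam8 difference, was not tested. In these sorted bulk samples, fewer cells carrying a transcript and less of it per cell cannot be told apart.

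Adam10 was the most abundant member in all 4 libraries and was lower in CCR7loCD137hi. ADAM10 makes the surface cut that precedes gamma-secretase cleavage of Notch, and LAG-3 and the low-affinity IgE receptor are among its other known substrates. The gene (ENSMUSG00000054693.14) lies at chr9:70679001-70780229 on the plus strand and has 16 exons. Its level was 27.7 and 30.5 FPKM in CCR7hiCD137lo replicates 1 and 2. It was 22.3 and 22.7 FPKM in CCR7loCD137hi replicates 1 and 2. Both CCR7loCD137hi libraries lay below both CCR7hiCD137lo libraries. The means were 29.1 ± 1.93 FPKM (SD, n = 2) and 22.5 ± 0.252 FPKM (SD, n = 2), a ratio of CCR7hiCD137lo to CCR7loCD137hi of 1.29. The fitted log2 difference was -0.35 with a standard error of 0.13, and it lay between -0.42 and -0.29 with any 1 library left out. Adam10 thus differed in the opposite direction from Adam8 and by much less. Its counting error was 1.95% to 3.89% in the 4 libraries.

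ADAM17, also known as TACE, is the main sheddase of TNF and shares the IL-6 receptor with other ADAMs. Adam17 (ENSMUSG00000052593.16, chr12:21323509-21373591, minus strand, 20 exons) was at 13.4 and 13.3 FPKM in CCR7hiCD137lo replicates 1 and 2. It was at 15.4 and 11.2 FPKM in CCR7loCD137hi replicates 1 and 2. The CCR7loCD137hi libraries lay on either side of the CCR7hiCD137lo libraries, so the populations overlapped. The means were 13.4 ± 0.0831 FPKM (SD, n = 2) and 13.3 ± 2.99 FPKM (SD, n = 2). The fitted log2 difference was -0.02 with a standard error of 0.19, and it became 0.19 without CCR7loCD137hi replicate 2 and -0.24 without CCR7loCD137hi replicate 1. With 2 libraries a side this does not show that the level was the same. The end of Adam17 overlaps that of Iah1, on the opposite strand, by 311 nt. Iah1 was at 12.3 and 8.87 FPKM in CCR7hiCD137lo, against 8.36 and 12.4 FPKM in CCR7loCD137hi.

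ADAM9, or meltrin gamma, can release HB-EGF. Adam9 (ENSMUSG00000031555.15, chr8:24949611-25016922, minus strand, 22 exons) was at 5.94 and 8.04 FPKM in CCR7hiCD137lo replicates 1 and 2. It was at 8.86 and 8.22 FPKM in CCR7loCD137hi replicates 1 and 2. The populations did not overlap, but CCR7hiCD137lo replicate 2 was nearer to both CCR7loCD137hi libraries than to its own replicate. The means were 6.99 ± 1.48 FPKM (SD, n = 2) and 8.54 ± 0.453 FPKM (SD, n = 2). The fitted log2 difference was 0.27 with a standard error of 0.19, and it was 0.08 without CCR7hiCD137lo replicate 1 and 0.46 without CCR7hiCD137lo replicate 2.

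ADAM15, or metargidin, has a disintegrin domain that binds integrins. Adam15 (ENSMUSG00000028041.17, chr3:89339640-89350010, minus strand, 23 exons) was at 4.81 and 6.96 FPKM in CCR7hiCD137lo replicates 1 and 2. It was at 5.14 and 9.27 FPKM in CCR7loCD137hi replicates 1 and 2. The populations overlapped, and replicate 2 was the higher library in both. The means were 5.89 ± 1.52 FPKM (SD, n = 2) and 7.20 ± 2.92 FPKM (SD, n = 2). The fitted log2 difference was 0.22 with a standard error of 0.32. It turned to -0.15 without CCR7loCD137hi replicate 2 and to -0.0044 without CCR7hiCD137lo replicate 1, and it was 0.59 without CCR7loCD137hi replicate 1. An antisense gene, 4731419I09Rik, covers 9290 nt of the Adam15 gene, and the sources used here do not say whether counting used the strand. The library kit was stranded, but whether reads of this antisense gene were counted in Adam15 is not known.

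ADAM19, or meltrin beta, processes neuregulins. Adam19 (ENSMUSG00000011256.16, chr11:46055987-46147342, plus strand, 23 exons) was at 13.4 and 12.2 FPKM in CCR7hiCD137lo replicates 1 and 2. It was at 12.6 and 16.8 FPKM in CCR7loCD137hi replicates 1 and 2. CCR7loCD137hi replicate 1 lay between the CCR7hiCD137lo libraries, and only CCR7loCD137hi replicate 2 stood above them. The means were 12.8 ± 0.872 FPKM (SD, n = 2) and 14.7 ± 3.01 FPKM (SD, n = 2). The fitted log2 difference was 0.18 with a standard error of 0.18, and it turned to -0.018 without CCR7loCD137hi replicate 2 and was 0.38 without CCR7loCD137hi replicate 1. The end of the gene is overlapped by the antisense genes Gm16033 and Gm16034, by 3334 and 1118 nt, with the same limit on strand.

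**Figure D1:**
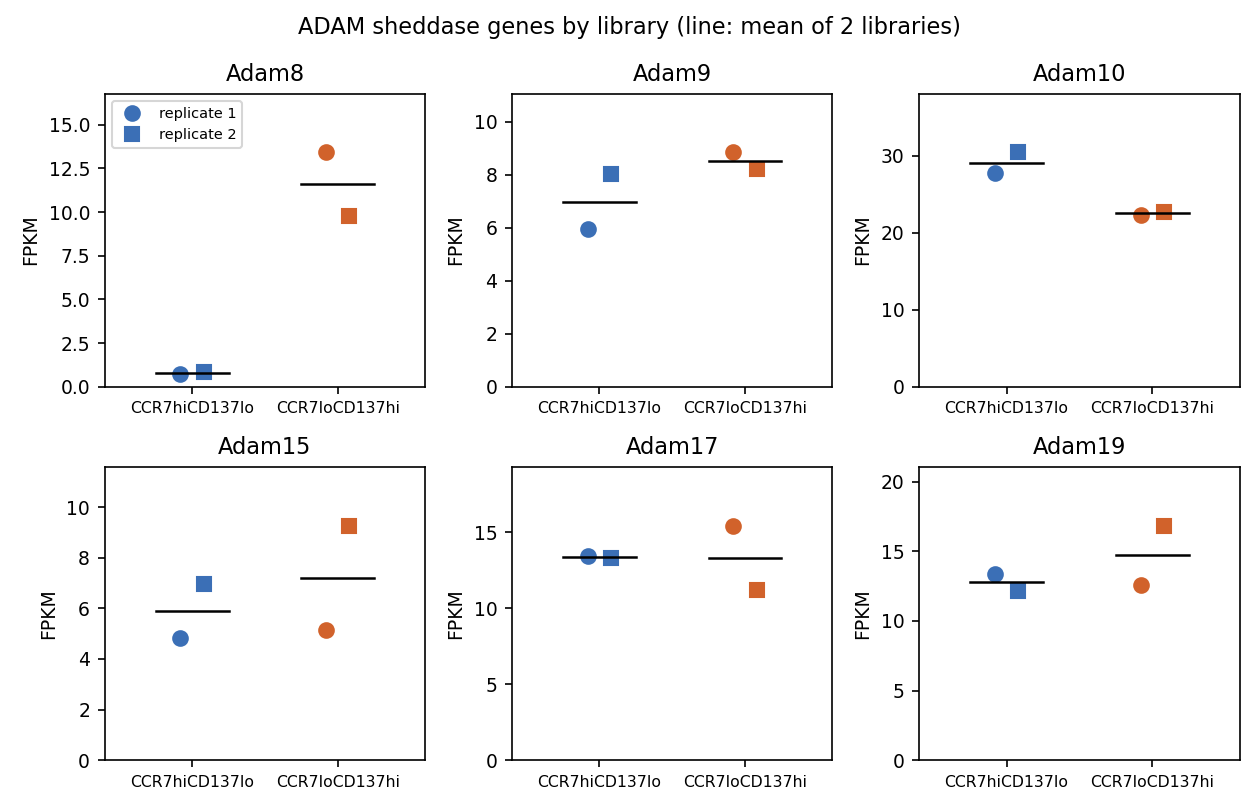
Each panel plots 1 ADAM sheddase gene: the y axis is FPKM, starting at 0, the x axis the sorted population, circles replicate 1, squares replicate 2 and the line the mean of 2 libraries. The Adam8 libraries sit at 0.734 and 0.867 against 13.4 and 9.75 FPKM, while the Adam15, Adam17 and Adam19 libraries overlap between populations.

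Of the 6 members, 2 had both CCR7loCD137hi libraries above both CCR7hiCD137lo libraries (Adam8 and Adam9), 1 had both below (Adam10) and 3 overlapped. Over the 10496 genes tested, 16.6% had both CCR7loCD137hi libraries above and 21.5% had both below. The members were chosen on this contrast, so nothing is read from their count. All 6 members passed the filter on low values, Adam8 only through its CCR7loCD137hi libraries. The median fitted log2 fold change over all genes tested was -0.01.

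**Figure D2:**
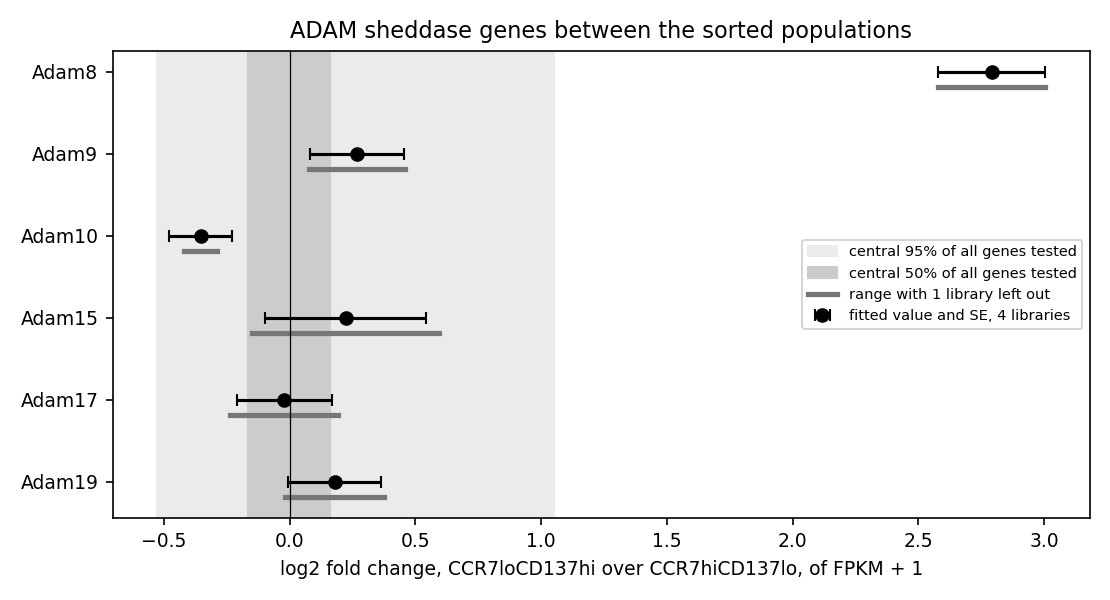
The x axis is the fitted difference in log2(FPKM + 1), CCR7loCD137hi minus CCR7hiCD137lo; points with bars are the value and its standard error from 4 libraries, grey lines the range with 1 library left out, and the shaded bands hold the central 95% and 50% of the 10496 genes tested. Adam8 stands at 2.79, the other members lie between -0.35 and 0.27, and the leave-out range crosses 0 for Adam15, Adam17 and Adam19.

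The order of the members' levels changed chiefly through Adam8. In CCR7hiCD137lo the order was Adam10, then Adam17 and Adam19, then Adam9 and Adam15, with Adam8 last. Adam17 and Adam19 overlapped in their library values, as did Adam9 and Adam15. In CCR7loCD137hi Adam10 was again first. Adam19, Adam17 and Adam8 followed with overlapping values, and Adam9 and Adam15, which also overlapped, came last. Adam8 therefore moved from the sixth place to the third in replicate 1 and to the fourth in replicate 2.

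The summed level of the 6 genes was 66.0 and 71.8 FPKM in CCR7hiCD137lo and 77.8 and 78.0 FPKM in CCR7loCD137hi. Without Adam8 the sum was 65.3 and 70.9 FPKM in CCR7hiCD137lo and 64.4 and 68.2 FPKM in CCR7loCD137hi. The sums thus separated with Adam8 and overlapped without it. Adam8 made up 1.11% and 1.21% of the summed level in CCR7hiCD137lo and 17.3% and 12.5% in CCR7loCD137hi. Adam10 made up 42.0% and 42.4% in CCR7hiCD137lo and 28.7% and 29.1% in CCR7loCD137hi. Shares of one sum are not independent, so a larger share of Adam8 lowers the share of every other member.

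**Figure D3:**
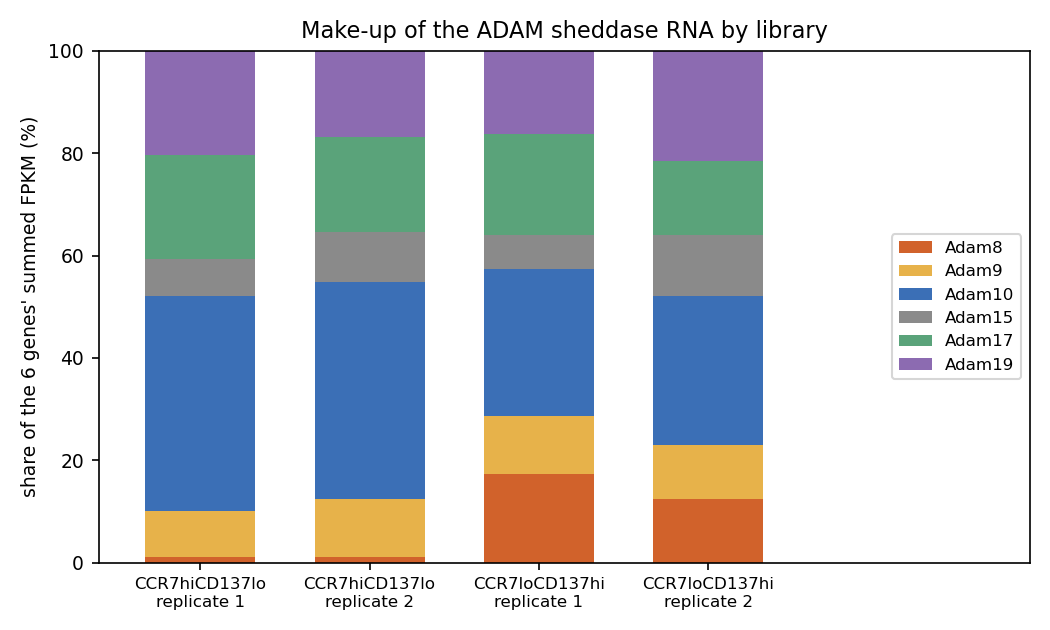
Stacked bars give the share of each gene in the summed FPKM of the 6 ADAM sheddase genes, in percent, for each of the 4 libraries. The Adam8 share is 1.11% and 1.21% in CCR7hiCD137lo and 17.3% and 12.5% in CCR7loCD137hi, and the Adam10 share falls from 42.0% and 42.4% to 28.7% and 29.1%.

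The 27 other ADAM genes in the tables were low throughout. Of these, 15 were at 0 in every library, none had a mean of 1 FPKM and so 0 of 27 were tested. The highest value of any of them in any library was 1.11 FPKM, in Adam4. In CCR7loCD137hi every member lay above every one of these genes. In CCR7hiCD137lo replicate 1 Adam4, at 0.773 FPKM, was level with Adam8, and in replicate 2 it was at 0.469 FPKM.

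The genes whose profile over the 4 libraries was most like that of Adam8 were Ly6c2, Ly6c1, Fasl, Ubd and Fosl2. Likeness was the Euclidean distance between centred log2(FPKM + 1) values, over 7774 genes with a mean of at least 5 FPKM, leaving out the members and short RNA genes, where the median distance was 2.85. The distances were 0.50 for Ly6c2 and 0.57 for Ly6c1, which encode Ly6C surface antigens. They were 0.62 for Fasl, which encodes the Fas ligand, 0.64 for Ubd, which encodes the ubiquitin-like protein FAT10, and 0.72 for Fosl2, which encodes an AP-1 subunit. Ubd, at 0.726 and 1.57 FPKM in CCR7hiCD137lo and 13.2 and 6.90 FPKM in CCR7loCD137hi, was like Adam8 lower in CCR7loCD137hi replicate 2 than in replicate 1. With 4 libraries the measure mostly reflects the size of the difference between the populations.

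The genes around the ADAM proteases were examined in lists of maturation factors, inhibitors, substrates and related proteases. Of 152 genes listed, 48 had a mean of at least 1 FPKM and were tested. With limma over all 10496 genes, 0 of the 48 passed a Benjamini-Hochberg adjusted p of 0.05 in either direction. At an unadjusted p under 0.05, 8 were higher and 3 were lower in CCR7loCD137hi. Over all genes tested, limma called 5 higher (0.0476%) and 1 lower (0.00953%), and the unadjusted threshold was passed by 4.64% of genes as higher and by 3.49% as lower. These 6 calls became 12 to 30 when any 1 library was left out and 42 with a replicate block, but 1 without a filter on low values and 2 with quantile normalization or without the variance trend. The median fitted log2 fold change was 0.08 over the 48 genes, and 28 of them were above 0, against 47.9% of all genes. The lists were chosen with earlier results of these data known, so nothing is read from their counts against all genes.

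Among 13 maturation and trafficking factors, 7 were tested, with a median log2 difference of -0.02. Furin, a convertase that removes ADAM prodomains, was at 170 ± 18.1 FPKM (SD, n = 2) in CCR7hiCD137lo and 198 ± 79.2 FPKM (SD, n = 2) in CCR7loCD137hi. Frmd8, which stabilizes the iRhom and ADAM17 complex, was at 40.7 ± 3.44 and 36.2 ± 5.01 FPKM (SD, n = 2 each). Both overlapped between the populations. The gene of this list at an unadjusted p under 0.05 was Rhbdf2, which encodes iRhom2, the carrier of ADAM17 to the surface, and it is named here after its values were seen. Rhbdf2 was at 2.92 and 3.74 FPKM in CCR7hiCD137lo, against 5.45 and 5.41 FPKM in CCR7loCD137hi, while Adam17 itself overlapped. Its log2 difference was 0.58 with a standard error of 0.18 and a limma adjusted p of 0.552.

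Inhibitors were sparse, with 2 of 6 tested. Timp2, a tissue inhibitor of metalloproteinases, was at 20.7 and 6.93 FPKM in CCR7hiCD137lo, against 4.56 and 1.66 FPKM in CCR7loCD137hi. It was lower in both CCR7loCD137hi libraries but its values spread widely within each population. Its log2 difference of -1.77 (SE 0.61) had a limma adjusted p of 0.606. Reck, a membrane-anchored inhibitor, was at 1.16 ± 0.353 and 1.98 ± 0.791 FPKM (SD, n = 2 each).

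Substrates that mediate adhesion and homing had 7 of 12 genes tested and a median of 0.27. Selplg, which encodes the ADAM8 substrate PSGL-1, was at 154 ± 2.89 and 161 ± 17.1 FPKM (SD, n = 2 each). Cd44 was at 16.6 ± 3.89 and 21.1 ± 1.65 FPKM, and Icam1 at 27.9 ± 1.83 and 35.2 ± 12.1 FPKM (SD, n = 2 each). The 1 gene of the list at an unadjusted p under 0.05 was Alcam, named after its values were seen, with a log2 difference of 1.24 (SE 0.36) and a limma adjusted p of 0.534.

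Of 12 ligands released by shedding, 6 were tested, with a median of -0.19. Fasl had the smallest adjusted p of all 48 genes. It was at 1.01 and 1.27 FPKM in CCR7hiCD137lo, against 9.31 and 11.3 FPKM in CCR7loCD137hi. The log2 difference was 2.40 with a standard error of 0.19 and a limma adjusted p of 0.0876, above the threshold. Among the alternatives run, it passed the threshold only with the replicate number as a block. Fas ligand is a known substrate of ADAM10, whose RNA was lower where Fasl was higher, but a link between these RNA levels was not tested. Tnf, the classical ADAM17 substrate, overlapped at 22.9 ± 10.5 and 19.6 ± 2.89 FPKM (SD, n = 2 each). Cd40lg overlapped as well, at 53.3 ± 10.7 and 45.1 ± 16.4 FPKM, and Csf1 was at 10.6 ± 2.68 and 6.45 ± 1.76 FPKM (SD, n = 2 each). Hbegf, the other gene at an unadjusted p under 0.05 and named after its values were seen, had a log2 difference of 0.97 (SE 0.34) and a limma adjusted p of 0.609.

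Shed receptors had 13 of 21 genes tested, a median of 0.04, and genes in both directions. Tnfrsf8, which encodes CD30, was at 0.176 and 3.97 FPKM in CCR7hiCD137lo, against 15.6 and 13.4 FPKM in CCR7loCD137hi, with a log2 difference of 2.68 (SE 0.71) and a limma adjusted p of 0.501. Among the alternatives run, it passed the threshold only when CCR7hiCD137lo replicate 2 was left out. Lag3, a checkpoint receptor cut by ADAM10 and ADAM17, was at 2.32 and 7.16 FPKM against 12.8 and 19.5 FPKM, with a log2 difference of 1.69 (SE 0.49) and a limma adjusted p of 0.537. Both were higher in each CCR7loCD137hi library, where Adam10 was lower and Adam17 overlapped, but a link between these RNA levels was not tested. Prnp, the prion protein gene, was at 92.1 ± 2.37 and 67.9 ± 13.5 FPKM, and Tnfrsf1b, which encodes TNF receptor 2, at 34.9 ± 5.49 and 48.2 ± 17.3 FPKM (SD, n = 2 each). The lower genes at an unadjusted p under 0.05, both named after their values were seen, were Il6ra and Notch2. Il6ra was at 11.5 and 9.45 FPKM against 4.34 and 5.28 FPKM, a log2 difference of -0.98 (SE 0.18) with a limma adjusted p of 0.347. Notch2 was at 16.7 and 18.5 FPKM against 10.2 and 8.79 FPKM, a log2 difference of -0.83 (SE 0.15) with a limma adjusted p of 0.346. Notch2 and Adam10, substrate and protease of the surface cut of Notch, were both lower in both CCR7loCD137hi libraries. A link between them was not tested.

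Downstream of the ADAM10 cut, 8 of 14 gamma-secretase and Notch signalling genes were tested, with a median of 0.08. The gamma-secretase subunit genes Psenen and Aph1a overlapped, at 66.1 ± 6.44 and 62.8 ± 1.02 FPKM and at 50.4 ± 1.85 and 51.0 ± 4.57 FPKM (SD, n = 2 each). Psen2, a catalytic subunit gene, was at 13.0 ± 1.62 and 18.4 ± 1.0 FPKM (SD, n = 2 each), with a log2 difference of 0.48 (SE 0.15) and a limma adjusted p of 0.560. Rbpj, which encodes the DNA-binding partner of cleaved Notch, was at 9.98 ± 2.07 and 15.1 ± 5.34 FPKM (SD, n = 2 each) and overlapped.

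Genes of the related Adamts and Mmp groups mostly had a mean below 1 FPKM. Of 24 Adamts genes, a group that here includes the Adamtsl genes, whose products lack the protease domain, 4 were tested. Adamts10 was at 11 ± 0.689 and 12.0 ± 2.76 FPKM (SD, n = 2 each), and Adamtsl4 at 2.67 and 2.83 FPKM against 10.4 and 5.87 FPKM, with a log2 difference of 1.24 (SE 0.28) and a limma adjusted p of 0.453. Of 23 Mmp genes 1 was tested, Mmp11, at 0.975 ± 0.743 and 2.25 ± 1.52 FPKM (SD, n = 2 each).

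**Figure D4:**
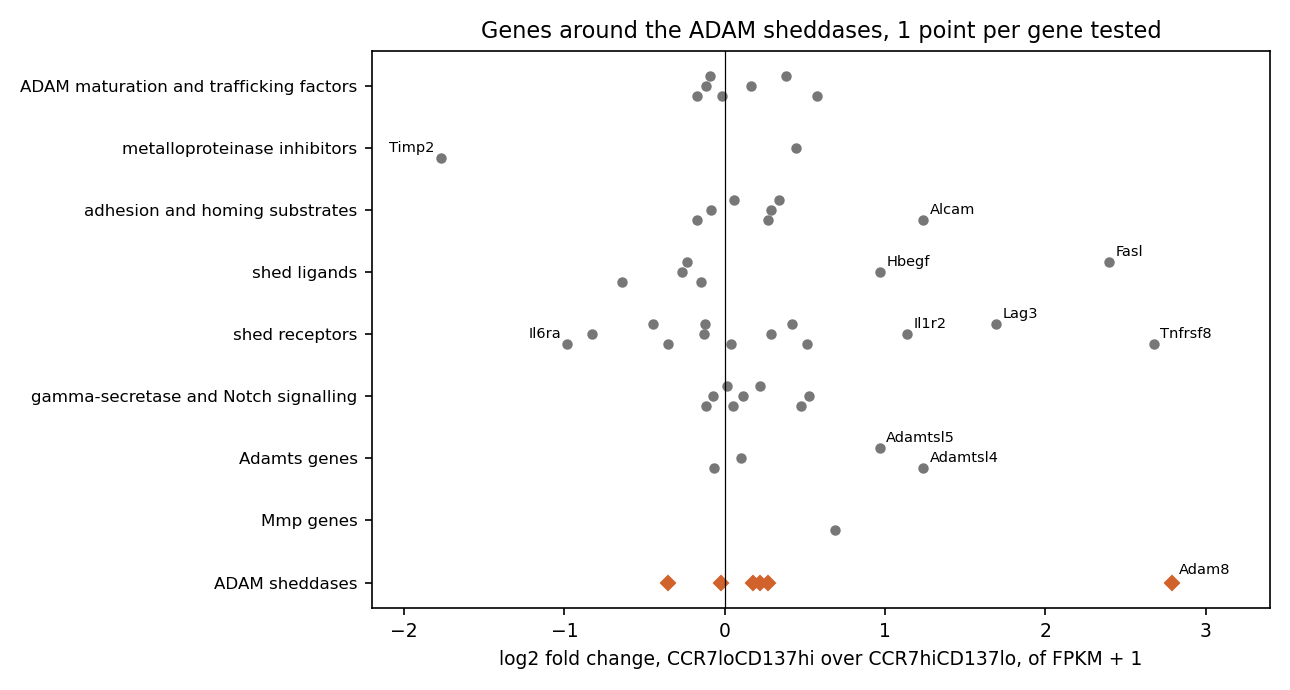
Each grey point is 1 tested gene of a list around the ADAM proteases and each orange diamond an ADAM sheddase gene; the x axis is the fitted difference in log2(FPKM + 1), CCR7loCD137hi minus CCR7hiCD137lo, and names are given beyond 0.9 in either direction. Adam8 lies at 2.79, beside Tnfrsf8 at 2.68 and Fasl at 2.40, and Timp2 is the lowest at -1.77; 0 of the 48 list genes passed the adjusted test.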

How the data were processed

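RNA was measured in 4 libraries, 2 per sorted population, made from TRIzol RNA with a stranded TruSeq mRNA kit, per the labels' protocols. The authors deposited 1 gene table per library with FPKM values, in the columns of a Cufflinks gene table per the file headers. Bowtie 0.12.8, TopHat 1.3.2, Cufflinks 2.0.2 and mm10 stand in the submitters' processing notes, with no role or order. The sources used here do not give the annotation, filters, scaling or use of strand. Each table held 23746 entries for 23284 symbols; for 240 repeated symbols the entry with the highest mean was kept.

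The members and gene lists were chosen with earlier results of these data known. Of each list the text names genes passing the test, otherwise the 2 most expressed and the 2 with the largest fitted change at a mean of at least 5 FPKM, and of all genes the 5 most like Adam8. List genes at an unadjusted p under 0.05 that this rule left out are named too, after their values were seen. Genes with a mean of at least 1 FPKM (10496) were put on the log2(FPKM + 1) scale and fitted in R 4.3.3 by limma 3.58.1 (trended eBayes, 2 residual and 2.54 prior degrees of freedom, two-sided, Benjamini-Hochberg over all genes, threshold 0.05). The fit was first tested on simulated data with equal noise in every gene and changes only in genes away from the floor. That checks the code and does not cover the uneven spread of these data or low genes. Alternatives were other pseudocounts, filters, normalizations, no variance trend, a replicate block and each library left out. Gene models were from GENCODE vM21, and file starts were raised by 1. Of the genes named by rule or as markers, 2 are not reported here. Promoter windows matched 5 of 6 members. Precision is limited by the estimated depth, and counting errors cover sampling of fragments only.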

Additional observations from a re-analysis of the deposited data

How the results depend on the processing

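Under 7 other settings the fitted differences of Adam9, Adam10, Adam15, Adam17 and Adam19 kept their direction and moved by less than the spread between replicates. The other filters and the replicate block cannot change a gene's fitted difference, so only the pseudocounts and normalizations could move it. Adam8 moved to 3.68 with a pseudocount of 0.1 and to 3.20 with 0.5. With each library left out in turn, where the lone library is assumed to vary like the others, Adam8 ranged from 2.58 to 3.0, Adam9 from 0.08 to 0.46 and Adam10 from -0.42 to -0.29, all in the same direction. The direction reversed for Adam15 (range -0.15 to 0.59, with -0.0044 without CCR7hiCD137lo replicate 1 and -0.15 without CCR7loCD137hi replicate 2), Adam17 (-0.24 to 0.19) and Adam19 (-0.018 to 0.38), the latter both without CCR7loCD137hi replicate 2. List genes called numbered 0 to 1 with a library left out (Tnfrsf8, without CCR7hiCD137lo replicate 2). All genes called numbered 6, against 1 without a filter, 2 with quantile normalization, 2 without the variance trend, and 12 to 30 with a library left out. The labels do not tie replicate numbers across populations. Deviations of same-numbered libraries correlated at 0.21 across 10496 genes, and with a replicate block 42 genes were called, 36 of them higher, and 1 list gene (Fasl). The block fit leaves 1 residual degree of freedom, against 2 in the main fit, and assumes a pairing that the labels do not give. The block changed no member's value, and with it the standard error went from 0.21 to 0.18 for Adam8 and from 0.32 to 0.12 for Adam15. The cause of these shifts was not tested. Depth limits the low Adam8 values in CCR7hiCD137lo: 3 fragments per kilobase correspond to 0.145 and 0.230 FPKM in CCR7hiCD137lo and to 0.257 and 0.473 FPKM in CCR7loCD137hi.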
